A study of Mus musculus with 6 samples.

Results

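The microRNAs described here are those made from 6 hairpins in the introns of Htr2c, the mouse gene for the serotonin receptor 5-HT2C. They were chosen by host gene and name, all arms of miR-1298, miR-448, miR-1264, miR-1912, miR-1911 and miR-764, with the entry of the highest total over the libraries where a name had several. This gives 12 mature arms, of which 10 had a row among the 1915 mature names of the count table, and the 2 arms of miR-1911 were not analysed here. Of the 10 rows, 9 held at least 1 read, against 1147 of all names. The cluster was taken up with its difference between the groups already known, so the differences below are a description and support nothing on their own.

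Small RNAs were sequenced from iBN cells, which the labels call BN cells of granulocyte-macrophage progenitor type, grown in suspension with GM-CSF and carrying an inducible form of the myeloid transcription factor PU.1. Induced cells received doxycycline at 1000 ng/ml for 72 hours and uninduced cells received none, with 3 libraries a group, numbered as trials 1, 2 and 3 in both. Every library came from cells with the inducible system, and no doxycycline-treated cells without it were analysed here, so doxycycline and PU.1 cannot be told apart as the source of a difference. Whether the trials are independent cultures is not stated in the labels, so any p-value reflects only how these libraries spread, possibly for technical reasons.

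A microRNA is cut from a hairpin in a longer transcript, first by Drosha in the nucleus and then by Dicer, which leaves a short duplex. One strand of the duplex, from the 5′ arm (5p) or the 3′ arm (3p), is loaded into an Argonaute protein and finds target messages through its seed, bases 2 to 8. A hairpin in an intron can be released from the host gene's own transcript or from a separate promoter. Htr2c is known for expression in neurons and in the choroid plexus, and miR-448, miR-1264, miR-1298, miR-1911, miR-1912 and miR-764 are known as its intronic microRNAs.

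RefSeq (GRCm38.p6) gave a mature sequence for 10 of the 12 arms, printed below for the arms the results turn on. Capitals mark the seed, and the prefix mmu, for mouse, is dropped in the text.
mmu-miR-1298-5p: uUCAUUCGgcuguccagaugua
mmu-miR-1298-3p: cAUCUGGGcaacugauugaacu
mmu-miR-448-3p: uUGCAUAUguaggaugucccau
mmu-miR-1264-3p: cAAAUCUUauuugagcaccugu
mmu-miR-1912-3p: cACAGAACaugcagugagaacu
mmu-miR-764-5p: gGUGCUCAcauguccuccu
mmu-miR-764-3p: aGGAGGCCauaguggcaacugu
The 10 arms with a sequence had 10 distinct seeds, so the cluster is defined by position and not by a shared seed. Among the 1623 names of the table with a RefSeq sequence, miR-7062-5p, with 4 reads in all, shared the seed of miR-764-3p, and no other name shared a seed with a member.

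The hairpins that carried the most reads were miR-1298 and miR-448, shown here from RefSeq with the mature arms in capitals.
Mir1298: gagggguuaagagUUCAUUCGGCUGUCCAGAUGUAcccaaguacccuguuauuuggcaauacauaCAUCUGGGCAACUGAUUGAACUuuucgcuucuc
Mir448: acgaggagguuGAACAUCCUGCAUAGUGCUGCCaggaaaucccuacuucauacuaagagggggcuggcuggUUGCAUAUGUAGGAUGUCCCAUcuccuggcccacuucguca
In GRCm38, the mm10 assembly, the Mir1298 hairpin lies at chrX:147064905-147065002 and the Mir448 hairpin at chrX:147158210-147158321, both on the plus strand like Htr2c (chrX:146962513-147197277). GENCODE M21 gives the principal transcript Htr2c-202 7 exons. The hairpins of miR-764 (chrX:147002259-147002366), miR-1912 (chrX:147009441-147009527), miR-1264 (chrX:147010601-147010686) and miR-1298 lie in its intron 3. Those of miR-1911 (chrX:147106965-147107047) and miR-448 lie in intron 5. The miR-1912 and miR-1264 hairpins are 1074 bases apart, while 54.2 kb separate miR-1264 from miR-1298. The 6 hairpins together span 156 kb.

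**Figure D1:**
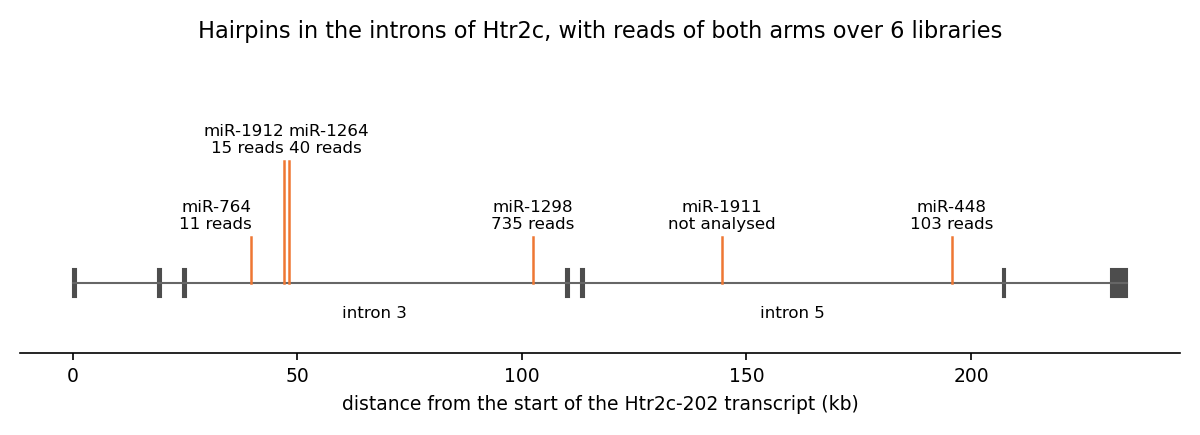
Map of the Htr2c-202 transcript, with distance from its start in kb on the horizontal axis, exons as grey blocks (short ones widened so that they can be seen) and hairpins as orange lines labelled with the reads of both arms over the 6 libraries. The miR-1298 hairpin had 735 reads and the miR-448 hairpin 103, against 40, 15 and 11 for miR-1264, miR-1912 and miR-764.

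The libraries held 8697384 to 13946613 reads, so that an arm without a read in a library could still be present below a limit of 0.215 to 0.345 CPM, depending on the library (CPM being reads scaled by library size). The labels describe no molecular identifiers, so this limit and every count interval given here cover counting error only. In bulk RNA, fewer cells making a microRNA and less of it per cell cannot be told apart.

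The Htr2c microRNAs were rare in uninduced cells and more frequent after induction. Together the members had 72 reads in the 3 uninduced libraries and 832 in the 3 induced ones, or 9.93 times as many per library total (exact 95% interval 7.80 to 12.8). miR-1298-5p supplied 79.0% of the reads of all members. Without it, the others had 18 and 172 reads, and the ratio was 8.21 (5.04 to 14.2). Induced trial 1 held 527 of the 832 induced reads. Without that library the ratio of all members was 5.44 (4.19 to 7.13) and that of all but miR-1298-5p 4.99 (2.94 to 8.91), and without both libraries of trial 1 they were 6.93 (4.95 to 9.94) and 6.20 (3.18 to 13.5). Each of the 9 members with a read had more pooled reads per total in induced cells, a direction that 55.7% of all names with a read had. Even in induced cells the members together made up 0.0024% of the reads.

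miR-1298-5p is the main product of its hairpin. Its reads were 25, 13 and 16 in uninduced trials 1, 2 and 3 and 425, 137 and 98 in induced trials 1, 2 and 3. Scaled to library size by the trimmed mean of M-values (TMM), these are 2.67, 1.44 and 1.47 CPM uninduced and 35.3, 15.4 and 7.20 CPM induced. The groups did not overlap, the lowest induced library lying above the highest uninduced one. The spread within the induced group was wide, with trial 1 highest and trial 3 lowest, at 19.3 CPM ± 14.5 (SD, n = 3) against 1.86 CPM ± 0.70 (SD, n = 3) uninduced.

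Pooled over trials, miR-1298-5p had 54 uninduced and 660 induced reads and thus a ratio of 10.5 (exact 95% interval 7.95 to 14.1). The ratio was 13.7 (9.14 to 21.4) in trial 1, 10.1 (5.70 to 19.4) in trial 2 and 5.14 (3.02 to 9.35) in trial 3. Induced cells were thus higher in each trial, by an amount that differed between trials. By mean CPM it ranked 451 among the 1038 names with reads in uninduced cells and 281 among 1083 in induced cells.

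In the fit across all microRNAs, by the quasi-likelihood test of edgeR with p-values adjusted after Benjamini and Hochberg, miR-1298-5p had a log2 fold change of 3.37 (SE 0.65, adjusted p = 0.032). It was the 1 member that passed the filter on low counts, and its fold change ranked 6 among 525 tested names. In that fit 6.10% of the tested names passed at 0.05, and 3.43% passed upward. The contrast was known when the cluster was taken up, so nothing is read from the member's call beside these shares. With the trial as a replicate block its log2 fold change was 3.27 (SE 0.22, adjusted p = 1.4e-06), in a fit that passed 114 names in place of 32. The unblocked call ended without the filter (adjusted p = 0.152) and when uninduced replicate 1 (0.0511), 2 (0.112) or 3 (0.121) or induced replicate 2 (0.0555) was left out. It also ended without both libraries of trial 2 (0.178). The log2 fold change stayed between 2.58 and 3.74 in these and the other alternatives tried.

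**Figure D2:**
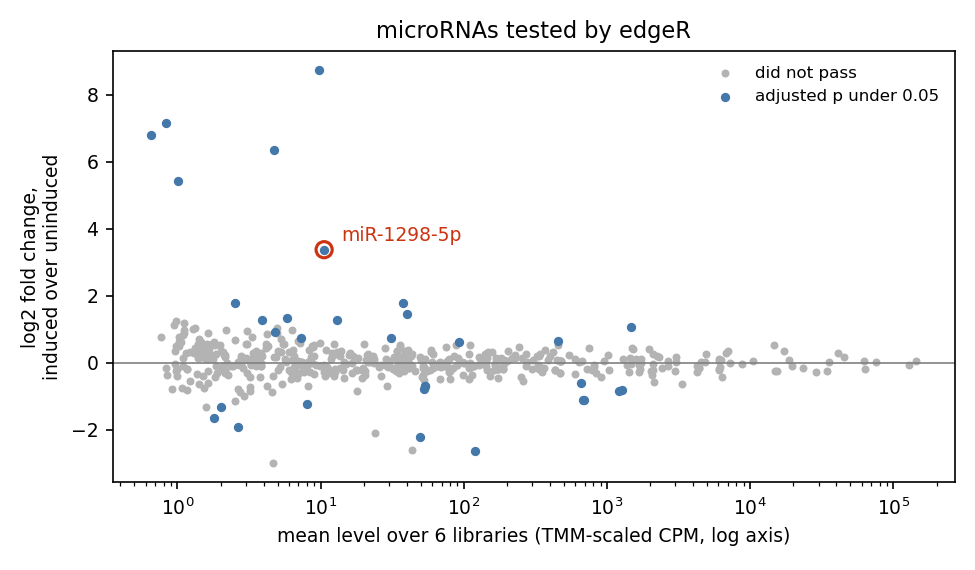
Each point is 1 of the 525 microRNAs tested by edgeR, with its mean TMM-scaled CPM over 6 libraries on a log horizontal axis and its log2 fold change, induced over uninduced, on the vertical axis. Blue points passed an adjusted p of 0.05, and miR-1298-5p, circled in red, lies at 3.37.

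miR-448-3p, the arm of the miR-448 hairpin found here, comes from the other intron. It had 2, 4 and 0 reads in uninduced trials 1, 2 and 3 and 64, 23 and 10 in induced ones. In TMM-scaled CPM these are 0.21, 0.44 and 0 uninduced and 5.32, 2.58 and 0.73 induced. The listed values of the groups did not overlap, counting error aside, and trial 1 was again the highest and trial 3 the lowest of the induced libraries. Pooled, the ratio was 13.9 (exact 95% interval 6.16 to 38.8), from 6 and 97 reads. In trial 1 it was 25.8 (6.85 to 217) and in trial 2 5.50 (1.88 to 21.9). In trial 3, with 0 uninduced reads, it was at least 2.80-fold higher when 3 counts in that library are taken as the floor, while the exact 95% interval of the ratio begins at 1.88. miR-448-3p had too few reads for the filter. In the edgeR fit without a filter, its log2 fold change was 3.70 (SE 0.71, adjusted p = 0.0016), and it was the 1 member of 9 that passed, beside 4.18% of all 1147 names. With the replicate block added to that fit, miR-1298-5p passed too, beside 12.4% of all names, and the other 7 members did not.

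miR-1264-3p was the member with the smallest ratio among those with at least 20 reads. It had 9 reads uninduced and 28 induced, a pooled ratio of 2.67 (exact 95% interval 1.23 to 6.44). This interval lies below that of miR-1298-5p with all libraries, but the intervals of the pair overlap without induced replicate 1 (0.59 to 4.28 against 4.14 to 7.66), uninduced replicate 1 (1.27 to 11.0 against 9.31 to 20.3) or uninduced replicate 2 (1.30 to 11.3 against 7.12 to 13.7). They also overlap without both libraries of trial 1 (0.62 to 7.16 against 4.87 to 11.0) or of trial 2 (upper end 11.2 against a lower end of 7.65). The interval of miR-1264-3p reaches below 1 without induced replicate 1, uninduced replicate 3 (0.81 to 4.61) or trial 1. Its ratio was 3.42, 1.91 and 2.52 in trials 1, 2 and 3, each below that of miR-1298-5p in the same trial. The trial 2 and 3 intervals (0.51 to 8.68 and 0.20 to 132) reach below 1. The groups overlapped, since induced trial 3, at 0.22 CPM, lay below uninduced trials 1 and 2, at 0.43 and 0.44 CPM. Whether miR-1264-3p and miR-1298-5p differ in ratio beyond the spread between libraries was not tested.

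miR-1298-3p, the strand opposite miR-1298-5p in the same hairpin, had 2 reads uninduced and 19 induced, giving a ratio of 8.16 (exact 95% interval 1.97 to 72.3). Its induced reads were 6, 3 and 10 in trials 1, 2 and 3, so trial 3 was the highest, unlike for the 5p arm. The uninduced reads were 1, 0 and 1. The listed values did not overlap, but the 3 reads of induced trial 2, at 0.33 CPM on the plain library total, lie below the limit of 0.345 CPM that 0 reads allow in uninduced trial 2, so a separation of the groups is not shown.

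**Figure D3:**
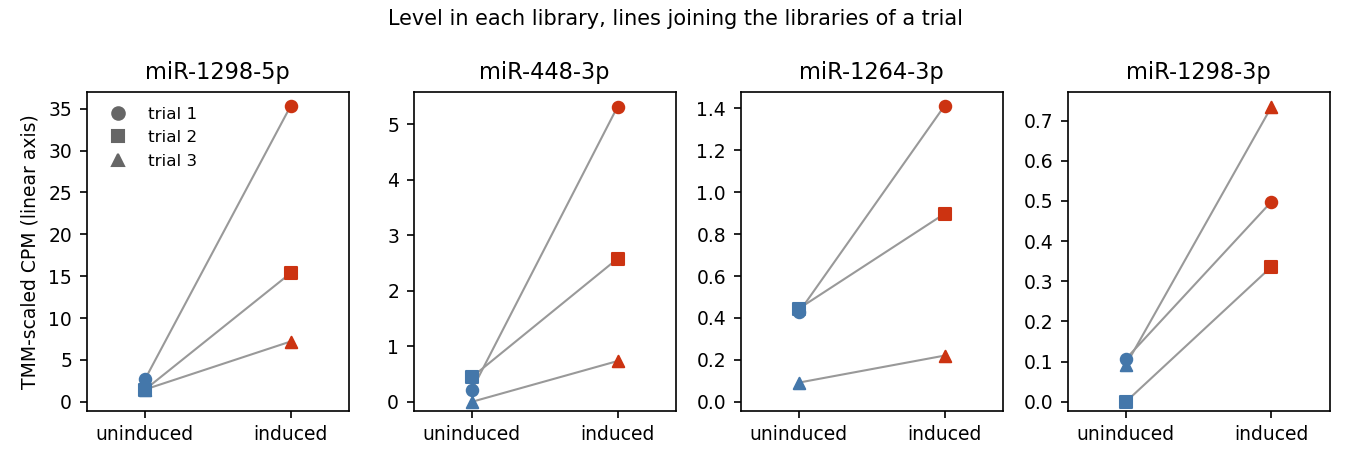
TMM-scaled CPM on linear vertical axes, which differ between panels, for the 4 members with at least 20 reads in uninduced (blue) and induced (red) libraries. Grey lines join the libraries of a trial: every line goes up, induced trial 1 is the highest for miR-1298-5p, miR-448-3p and miR-1264-3p, and induced trial 3 is the highest for miR-1298-3p.

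The remaining members were near the limit of detection. miR-1912-3p had 0 reads uninduced and 6, 4 and 1 induced. The 1 read of induced trial 3, at 0.072 CPM on the plain library total, lies below the 0.256 to 0.345 CPM that 0 reads allow in the uninduced libraries, so a separation of the groups is not shown. Pooled, it was at least 3.15-fold higher if the uninduced group is set to a floor of 3 counts, while the exact 95% interval of the ratio begins at 2.16. The other arm of that hairpin, miR-1912-5p, had 0 and 4 reads. miR-764-5p had 0 and 5 reads and miR-764-3p 1 and 5, the latter a ratio of 4.30 with an interval from 0.48 to 203. miR-1264-5p had 3 reads, all in induced trial 1. miR-448-5p had 0 reads in every library, which allows up to 0.125 CPM over the uninduced and 0.107 CPM over the induced libraries by the exact upper limit of a Poisson count. Taken singly, the arms of miR-764, miR-1912-5p and miR-1264-5p had too few reads to show a difference between the groups. With both arms summed, miR-764 had 1 read uninduced and 10 induced, a ratio of 8.59 (exact 95% interval 1.22 to 373). miR-1912 had 0 and 15, with an interval that begins at 3.08.

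Across the members with a read, 5 of 9 were higher in induced cells in each of the 3 trials, namely both arms of miR-1298, miR-448-3p, miR-1264-3p and miR-1912-3p. For all names with a read that share was 20.2%. For 4 of the 9, the same without miR-1264-3p, the listed values of the groups did not overlap, against 11.3% of all names in that direction. Of these 4, miR-1298-3p and miR-1912-3p are not separated once the limit of 0 reads is allowed for. For miR-448-3p the closest libraries were uninduced trial 2, with 4 reads, and induced trial 3, with 10, and counting error on these was not allowed for. Of the 4 members with at least 20 reads, 3 had a pooled ratio of 4 or more, and 1.62% of the 681 names with as many reads did, 11 in number. The other 8 were miR-218-5p, the arms of miR-511, those of miR-342, miR-6541, miR-6954-3p and miR-7035-3p. These counts come from the contrast that was known beforehand, and nothing is read from them.

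**Figure D4:**
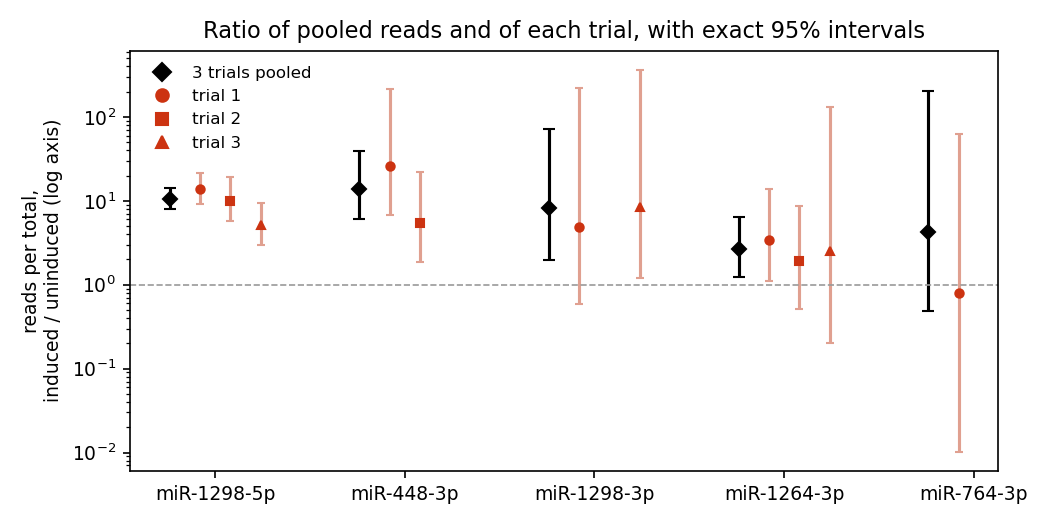
Reads per library total in induced over uninduced cells on a log axis, for the 5 members with reads in both groups. Black diamonds are the 3 trials pooled, red symbols are single trials with an uninduced read, and bars are exact 95% intervals; the pooled interval lies above 1 for all but miR-764-3p (0.48 to 203).

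The share that miR-1298-5p took of the cluster's reads varied less than their amount, although a share is bounded and an amount is not. Not every member kept its share: miR-1298-3p had 6 of the 527 reads of induced trial 1 and 10 of the 129 of induced trial 3. Summed over members, the induced libraries of trials 1, 2 and 3 held 46.3, 19.4 and 9.25 CPM on plain library totals. miR-1298-5p took 80.6% (exact Clopper-Pearson 95% interval 77.0 to 83.9), 77.8% (71.0 to 83.7) and 76.0% (67.7 to 83.1) of them. In the uninduced libraries the sum was highest in trial 1, with 2.41 and 1.54 CPM in trials 2 and 3, and the share was 75.8% (57.7 to 88.9), 61.9% (38.4 to 81.9) and 88.9% (65.3 to 98.6). The intervals of the share thus overlapped in all 6 libraries, while in both groups the sum was highest in trial 1 and lowest in trial 3.

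Trial 1 was also the highest library of each group for miR-1298-5p alone, a pattern that 11.8% of the tested names had. The granulocytic miR-223-3p was lowest in trial 3 in both groups, with 47192 reads uninduced and 38106 induced against 60533 to 80811 in the other libraries. By reads, miR-223-5p was lowest in trial 2 in both groups, and miR-142a-5p and miR-142a-3p were highest in trial 3 in both. These reads are not scaled to library size, which matters for miR-223-5p. It had 11463 of 9089319 reads in induced trial 2 and 14680 of 13946613 in induced trial 3. Scaled to library size, trial 3 was thus its lowest induced library, as for miR-223-3p, while trial 2 stayed the lowest uninduced one. The part of miR-223-3p in these results was not tested.

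Arm use could be set apart from the amount of each hairpin. In miR-1298 the 5p arm held 96.4% of the reads of both arms in uninduced cells (54 of 56, exact 95% interval 87.7 to 99.6) and 97.2% in induced cells (660 of 679, 95.7 to 98.3). The intervals overlapped, so no change of arm was detectable between the groups. Within the induced group the libraries differed. The 5p share was 98.6% (97.0 to 99.5) in trial 1, 97.9% (93.9 to 99.6) in trial 2 and 90.7% (83.6 to 95.5) in trial 3, where 10 of 108 reads were 3p. The intervals of trials 1 and 3 did not overlap, in counting error alone. As means over libraries, the 5p share was 96.8% ± 2.99 (SD, n = 3) uninduced and 95.7% ± 4.34 (SD, n = 3) induced, a difference of less than the spread within either group (two-sided exact permutation p = 0.8, where 3 libraries against 3 cannot go below 0.1).

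The other hairpins favoured the 3p arm or were too rare to say. miR-448 had 0 5p reads of 103, with an upper limit of 3.52%, and miR-1264 had 3 of 40 (1.57% to 20.4%). miR-1912 had 4 of 15 reads from the 5p arm, or 26.7% (7.79 to 55.1), and miR-764 had 5 of 11, or 45.5% (16.7 to 76.6). The dominant arm was therefore 5p for miR-1298 and 3p for miR-448 and miR-1264, and the intervals of miR-764 and miR-1912 include an even split.

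The 5 arms set side by side next are all 22 bases long, so no scaling by length enters. Reads of different sequences can be captured with different efficiency, which was not tested, so the order is one of reads. In each induced library miR-1298-5p was above miR-448-3p, and miR-448-3p was above miR-1264-3p, whose mean was 0.84 CPM ± 0.60 (SD, n = 3). miR-1298-3p followed with 0.52 CPM ± 0.20 (SD, n = 3) and miR-1912-3p with 0.34 CPM ± 0.23 (SD, n = 3). miR-1264-3p lay above miR-1912-3p in each induced library, whereas miR-1298-3p was above miR-1264-3p in induced trial 3 alone. In that library alone miR-1298-3p was also above miR-1912-3p. The pair had 6 reads each in induced trial 1, and 3 against 4 in induced trial 2. Whether these last 3 arms differ in level was not tested. In uninduced cells miR-1298-5p was again the highest in every library, while miR-1264-3p, at 0.32 CPM ± 0.20 (SD, n = 3), and miR-448-3p, at 0.22 CPM ± 0.22 (SD, n = 3), overlapped. Reads of both arms, of any length, did not follow the order along the gene: miR-764, the hairpin nearest the start of Htr2c, had the fewest reads of the 5 hairpins with rows, and miR-1298, at the far end of the same intron, the most.

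The host gene's start was examined because the members with reads lie in introns of the same gene, on its strand. Whether they are made from its transcript was not tested. The RefSeq promoter of Htr2c, from 250 bases before to 50 after its start on the plus strand of GRCm38.p6, is printed with the GGAA core of Ets factors such as PU.1, on either strand, in capitals.
Htr2c promoter (chrX:146962263-146962562): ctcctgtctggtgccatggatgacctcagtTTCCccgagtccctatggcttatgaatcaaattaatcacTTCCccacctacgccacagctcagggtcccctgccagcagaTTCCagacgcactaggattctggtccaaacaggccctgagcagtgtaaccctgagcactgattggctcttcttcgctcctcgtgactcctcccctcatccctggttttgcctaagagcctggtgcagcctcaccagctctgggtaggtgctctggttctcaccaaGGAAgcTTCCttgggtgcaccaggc
GGAA occurred 5 times counting both strands, and 28.6% of the 32851 promoters of that length held as many or more. The longer GAGGAA, which contains GGAA and is preferred by PU.1, occurred 0 times on either strand, against at least once in 28.3% of promoters. These are matches of letters, not binding sites, and say nothing of factors that act elsewhere in the gene.

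The 5 tested microRNAs whose log2 CPM followed miR-1298-5p most closely over the 6 libraries were miR-28c (Pearson r = 0.99), miR-6990-5p (0.97), miR-423-3p (0.97), miR-195a-5p (0.96) and miR-450a-5p (0.95). They share the libraries, the group difference and the trials with it, so the values are descriptive. Their changes were far smaller, with miR-28c going from 3.66 to 4.38 CPM in uninduced libraries to 5.88 to 7.56 CPM in induced ones. Its log2 fold change was 0.72 (SE 0.21, edgeR adjusted p = 0.071). Of the 5, miR-450a-5p, itself from chromosome X, passed the test (0.62, SE 0.16, edgeR adjusted p = 0.0499), a call that held in 1 of the 6 fits that left out a library, that without induced replicate 3. Of the other microRNAs placed on chromosome X and on no other chromosome, 43 were tested, 4 rose and 1 fell (13 passed with the replicate block). These are 5 of 43 against 6.10% of all tested names, and 13 of 43 against 21.7% with the block. The 4 that rose, miR-351-5p, miR-450a-5p, miR-450b-3p and miR-450b-5p, come from 1 cluster of hairpins and are not 4 separate cases. The median log2 fold change was 0.19 against 0.02 over all tested names, and no rise across chromosome X is read from it.

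Markers of the labelled cell type and of tissues known to express Htr2c were counted beside the cluster. The lists were chosen with earlier results of these data known, so their counts are a description. Of 9 haematopoietic and myeloid arms 7 were tested and 0 passed in edgeR or DESeq2, with 1 at an unadjusted edgeR p under 0.05 and 1 called with the replicate block, and a median log2 fold change of 0.05. Their sum was 73555 to 92470 CPM uninduced and 75566 to 92955 CPM induced, led by miR-142a-5p with 501542 to 1039420 reads a library. The erythroid miR-144-3p had 0 reads and miR-451a 1 to 5.

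Of 16 neural arms 6 were tested, of which 1 rose, miR-218-5p (0 reads uninduced, 24, 13 and 21 induced), and 1 fell, miR-129-2-3p (log2 fold change -1.92, SE 0.30, edgeR adjusted p = 0.0044). Leaving out any of the 6 libraries ended neither call. The median was -0.12, and the sum was 379 to 452 CPM uninduced and 368 to 409 CPM induced. Most of the sum was miR-128-3p and miR-138-5p. Of the 16 arms, 5 had 0 reads in all 6 libraries, namely miR-124-3p, miR-124-5p, miR-129-1-3p, miR-137-3p and miR-488-3p. miR-9-5p had 2 to 5 reads uninduced and 11 to 14 induced.

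Of 11 arms of choroid plexus and ciliated epithelium 6 were tested. miR-449a-5p rose (1.32, SE 0.24, edgeR adjusted p = 0.013), as did miR-200b-3p (0.73, SE 0.19, edgeR adjusted p = 0.0499), and miR-34c-5p fell (-1.24, SE 0.29, edgeR adjusted p = 0.035). The call of miR-449a-5p ended without uninduced replicate 1 (adjusted p = 0.0715) or induced replicate 2, that of miR-200b-3p ended whichever of the 6 libraries was left out, and that of miR-34c-5p ended for 5 of them, uninduced replicate 3 being the exception. These 3 of 6 stand beside 6.10% of all tested names. The list was chosen with earlier results known and counts related arms, such as miR-449a-5p and miR-449c-5p, singly, so nothing is read from this or the shares that follow. With the replicate block 5 of the 6 passed, beside 21.7% of all tested names, DESeq2 called 3, and all 6 had an unadjusted edgeR p under 0.05. The sum was 22.4 to 31.1 CPM uninduced and 28.0 to 36.4 CPM induced, and the median log2 fold change was 0.89. miR-204-5p, abundant in choroid plexus, had at most 3 reads a library in either group, and miR-211-5p at most 2. Whether cells of another type add to the reads of the Htr2c microRNAs was not tested.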

How the data were processed

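The authors deposited raw read counts per mature microRNA and precursor, with the unit named in the file's header. Trim Galore 0.4.0, DESeq2 (listed as 2.1.8.0) and mm10 come from the submitters' processing notes, and alignment to miRBase from the series' design text. The read counter is not given in the sources used here, nor is the handling of reads with many matches. Of 2061 entries, 1 was kept for each of 1915 names. The entries left out held 17.5% of the table's total, and each member has 1 entry. The members and lists were chosen with earlier results of these data known.

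Differences were fitted on the whole table with edgeR 4.0.16 in R 4.3.3 (TMM, filterByExpr by group, robust quasi-likelihood, group alone, two-sided, Benjamini-Hochberg at 0.05) and tested on simulated data. Log2 CPM for correlations used a prior count of 2. Pooled reads were divided by summed library totals, with exact conditional 95% intervals (scipy 1.17.1) and a floor of 3 counts for a group at 0, used from 10 reads in the other group. Arm shares have Clopper-Pearson intervals; the exact permutation test of the miR-1298 share was added after seeing the data. Same-numbered trials correlated in their deviations from the group means by 0.33, 0.45 and 0.53. Libraries of unlike number were not set beside them, so whether the trials pair the libraries was not tested. The main fit and the permutation test left the trial out, and the block was an alternative. Named microRNAs are all members, the 5 most correlated with miR-1298-5p, names sharing a seed with a member and examples from the lists; the 8 names set beside the members at a ratio of 4 or more, and some list examples, were chosen after their values were seen. Alternatives were the block, DESeq2 1.42.0 and its size factors, no filter, summed entries, other library totals and left-out libraries or trials.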

Additional observations from a re-analysis of the deposited data

How the results depend on the processing

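Each of the 9 members with a read kept more pooled reads per total in induced cells under all alternatives except those without trial 1 or induced replicate 1, where the count was 8, since miR-1264-5p has reads there alone. For miR-1298-5p, 8 of 14 alternative fits kept the call and 6 lost it, all upward. The pooled ratio of miR-1298-5p ranged from 5.59 without induced replicate 1 to 15.0 without induced replicate 3, and was 7.18 without trial 1. The summed ratio of all members ranged from 5.44 to 14.1, and that of all but miR-1298-5p from 4.99 to 11.3, when a library or a trial was left out. The pooled ratio of miR-448-3p ranged from 7.06 to 30.5, miR-1264-3p from 1.57 to 4.01, miR-1298-3p from 5.76 to 11.5 and miR-764-3p from 1.75 to 5.14. The bound for miR-1912-3p ranged from 1.48 without trial 1 to 4.82, with 1.90 without uninduced replicate 3, 2.14 without induced replicate 1 and 1.92 without trial 2. The induced 5p share of miR-1298 was 94.8% without induced replicate 1 and 98.4% without induced replicate 3, and that of miR-1264 was 0 without induced replicate 1. Over all names, 32 passed, 114 with the trial as a replicate block, and 11 to 41 when a library or a trial was left out. Fits without both libraries of a trial, the pooled ratios without a trial, the summed ratios and the counts of members were added after seeing the data. Depth limits the arms of miR-764 and miR-1912, miR-1264-5p and miR-448-5p, with at most 11 reads each. The causes of these changes were not tested.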
